A study of Mus musculus with 12 samples.

Results

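Purinergic signalling, the system that handles nucleotides and adenosine outside the cell, was followed in mouse T helper 17 (Th17) cells through the enzymes and receptors encoded by Nt5e, Entpd1, Adora2a, P2rx7 and Ada. These are 5 of the 29522 genes in the files, taken by name and mapped to Ensembl identifiers. RNA was sequenced from 12 libraries in 4 groups of 3 biological replicates each. The tested groups received GSK805 at 0.5 uM together with ILA at 200 uM, ILA at 200 uM alone, or GSK805 at 0.5 uM alone, and the control group received vehicle. All groups started from naive CD4+ T cells that were isolated magnetically from spleens of wild-type C57BL/6J mice, cultured in a Th17-inducing medium and activated through CD3 and CD28. ILA was taken to mean indole-3-lactic acid, a tryptophan metabolite of gut bacteria, and GSK805 is a small molecule that inhibits Th17 differentiation. The labels name no mice, ages or batches, so p-values reflect only how far these samples spread, which may be technical in part.

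In this pathway, CD39, encoded by Entpd1, removes phosphates from extracellular ATP and ADP to leave AMP, and CD73, encoded by Nt5e, turns AMP into adenosine. Adenosine acts on the receptor encoded by Adora2a, which raises cyclic AMP and restrains T cell activation, while adenosine deaminase, encoded by Ada, converts adenosine into inosine. P2rx7 encodes an ATP-gated cation channel that opens at high extracellular ATP and can lead to T cell death. CD39 and CD73 are best known in this setting from regulatory T cells and from subsets of Th17 cells.

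Levels are FPKM, fragment counts scaled to exon length and library depth, so a comparison between genes depends on the exon lengths used. The depth recovered from the values was between 17.84 M and 23.49 M reads per library, so that a single read per kb of exon stands for 0.0426 to 0.0560 FPKM. Changes are differences of log2(FPKM + 1) from a limma model of 13511 genes, adjusted over all of them, and the fold that goes with such a change is smaller than the fold of the FPKM themselves where values are low. The T cell markers Cd3e, Cd3d, Cd3g, Cd4, Trac, Cd5 and Cd28 were all present, with summed levels of 752 to 792 FPKM with GSK805+ILA, 799 to 845 FPKM with ILA, 485 to 512 FPKM with GSK805 and 451 to 473 FPKM with vehicle. The 4 Th17 markers Il17a, Il17f, Il23r and Ccr6 summed to 168 to 194 FPKM with GSK805+ILA, 427 to 470.3 FPKM with ILA, 347 to 399.7 FPKM with GSK805 and 1212 to 1501 FPKM with vehicle. The 4 markers of regulatory T cells did not move together, and Ikzf2 lay below 1 FPKM in every group. In the same order of groups, Foxp3 averaged 2.17, 1.68, 1.84 and 1.23 FPKM. Ctla4 averaged 111, 186, 49.2 and 91.2 FPKM, and Il2ra 184, 157, 259 and 238 FPKM. Of 9 myeloid markers 7 lay below 1 FPKM in every group, the exceptions being Csf1r and Cd68. So did 3 of the 4 B cell markers matched, while Cd79a had group means of 1.51 FPKM with GSK805+ILA, 2.35 FPKM with ILA, 1.40 FPKM with GSK805 and 1.87 FPKM with vehicle. The 4 markers of CD8 T and NK cells that were matched summed to 18.6 to 20.1 FPKM with GSK805+ILA, 33.7 to 36.6 FPKM with ILA, 13.9 to 16.2 FPKM with GSK805 and 17.7 to 21.4 FPKM with vehicle. Most of this sum was Klrd1, with group means of 17.4 FPKM with GSK805+ILA, 33.7 FPKM with ILA, 10.6 FPKM with GSK805 and 15.3 FPKM with vehicle, whereas Cd8a and Klrb1c lay below 1 FPKM in every group and Cd8b1 averaged 1.27 FPKM with ILA and 4.06 FPKM with vehicle. The summed myeloid level was 10.3 to 12.9 FPKM with GSK805+ILA, 11.2 to 12.9 FPKM with ILA, 7.88 to 8.55 FPKM with GSK805 and 7.80 to 9.42 FPKM with vehicle. ILA replicate 2 held haemoglobin RNA, with 18.2 FPKM of Hba-a1 and 23.3 FPKM of Hbb-bs, and the other libraries held none but for a vehicle mean of 0.0196 FPKM of Hbb-bs.

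Nt5e and P2rx7 are the members that were called higher with ILA than with vehicle, so the sequences just upstream of their starts are shown. RefSeq windows of 300 bases on GRCm38.p6, 250 before and 50 after an annotated start, matched 4 of the members with 6 windows and held no entry matched to Adora2a. They were searched on both strands for GCGTG, the core of the element bound by the aryl hydrocarbon receptor, which senses tryptophan metabolites, and for AGGTCA, a half-site shared by many nuclear receptors. These motifs share no overlapping match in the windows shown. The 250 bases before the start are printed 5′ to 3′ on the gene's strand, with matches in capitals, from chr9:88327359-88327608 (plus strand) for Nt5e and from chr5:122643677-122643926 and chr5:122650133-122650382 (plus strand) for P2rx7:
Nt5e: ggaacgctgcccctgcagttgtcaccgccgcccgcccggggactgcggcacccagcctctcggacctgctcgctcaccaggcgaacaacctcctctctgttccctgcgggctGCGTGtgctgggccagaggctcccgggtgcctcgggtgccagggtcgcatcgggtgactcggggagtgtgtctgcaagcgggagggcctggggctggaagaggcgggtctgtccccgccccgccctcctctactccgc
P2rx7, upstream start: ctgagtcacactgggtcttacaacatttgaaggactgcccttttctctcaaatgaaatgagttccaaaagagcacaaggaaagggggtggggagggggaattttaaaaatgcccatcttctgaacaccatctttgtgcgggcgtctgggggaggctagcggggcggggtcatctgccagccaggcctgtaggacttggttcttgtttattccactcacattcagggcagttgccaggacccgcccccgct
P2rx7, downstream start: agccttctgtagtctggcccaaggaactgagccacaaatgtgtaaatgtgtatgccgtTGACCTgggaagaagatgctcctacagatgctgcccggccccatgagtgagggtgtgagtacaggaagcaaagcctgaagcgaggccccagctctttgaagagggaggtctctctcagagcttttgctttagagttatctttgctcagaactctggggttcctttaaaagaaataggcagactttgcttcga
GENCODE places the 5′ end of Nt5e farther upstream, at 88327197, so that its window lies within the gene as annotated there. The Nt5e window held GCGTG once, beginning at base -138 from the start. Neither P2rx7 window held GCGTG, and the downstream one held AGGTCA on the opposite strand, read as TGACCT, beginning at base -192. The Ada window held GCGTG at bases 2 and 42, after its start, and 1 of the Entpd1 windows held it at base -18. Among 32544 RefSeq windows of the same length 32.6% held GCGTG and 16.2% held AGGTCA, and these matches are letters in a window, not binding sites.

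Nt5e, the enzyme that forms adenosine, was highest with ILA, next with both compounds, then with GSK805, and lowest with vehicle. Its gene (ENSMUSG00000032420) lies on the plus strand of chromosome 9 from 88327197 to 88372092 (GRCm38, GENCODE release M21), with 8602 exonic bases and no overlapping gene. Nt5e stood at 72.9, 75.8 and 72.1 FPKM with GSK805+ILA and at 90.6, 94.7 and 90.0 FPKM with ILA. With GSK805 alone the libraries held 44.5, 42.4 and 40.2 FPKM, and with vehicle 28.2, 25.7 and 27.0 FPKM. No library of any group overlapped those of another, and each neighbouring pair in this order differed in the limma test. Groups of 3 libraries without overlap were common over all genes tested, which holds for the tested genes below as well. Against vehicle, 36.5% lay higher without overlap and 26.3% lower with ILA, 25.8% and 12.8% with GSK805, and 35.5% and 23.7% with both compounds. With GSK805+ILA these shares were 28.2% and 23.9% against GSK805, and 20.0% and 17.2% against ILA. Each library held between 4530 and 16849 reads of Nt5e, so counting error was small beside the spread between replicates.

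Against vehicle, Nt5e was 3.32-fold higher with ILA, at 91.8 ± 2.53 FPKM against 27.0 ± 1.26 FPKM (SD, n = 3 each; log2 change 1.73, SE 0.05, 95% interval 1.63 to 1.83, limma adjusted p = 7.2e-10). Over all genes tested, 57.9% were called in that comparison and 33.9% were called higher, so a call by itself was common there. The median log2 change of all genes was 0.06. GSK805 alone raised Nt5e 1.55-fold, to 42.3 ± 2.12 FPKM (log2 change 0.63, SE 0.05, adjusted p = 1.1e-05), in a comparison where 22.8% of genes were called and 15.7% were called higher. With both compounds it was 2.67-fold higher than with vehicle, at 73.6 ± 1.94 FPKM (log2 change 1.42, adjusted p = 3.8e-09), where 52.1% of genes were called and 31.8% called higher.

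The rise of Nt5e with ILA was smaller on a background of GSK805. Cells with GSK805+ILA had 1.72-fold more Nt5e than cells with GSK805 alone (log2 change 0.78, 95% interval 0.68 to 0.88, adjusted p = 3.8e-07; 39.5% of all genes called). They had 1.24-fold less than cells with ILA alone (log2 change -0.32, adjusted p = 0.00105; 18.6% called). The interaction, the ILA effect with GSK805 minus the ILA effect without it, was -0.95 on the log2 scale (SE 0.06; 95% interval -1.09 to -0.81, adjusted p = 8.6e-05), for which 13.8% of genes were called and 8.7% called lower. Each of these Nt5e calls held in every alternative tried. The summed T cell markers were also higher with ILA than with vehicle. So was the sum of the CD8 T and NK cell markers, but mainly through Klrd1. Cd8b1 (1.27 FPKM against 4.06 FPKM) and Cd8a (0.0646 FPKM against 0.219 FPKM) were lower with ILA. The part of such cells in the result was not tested, and in bulk RNA more cells of a type and more RNA per cell cannot be told apart.

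**Figure D1:**
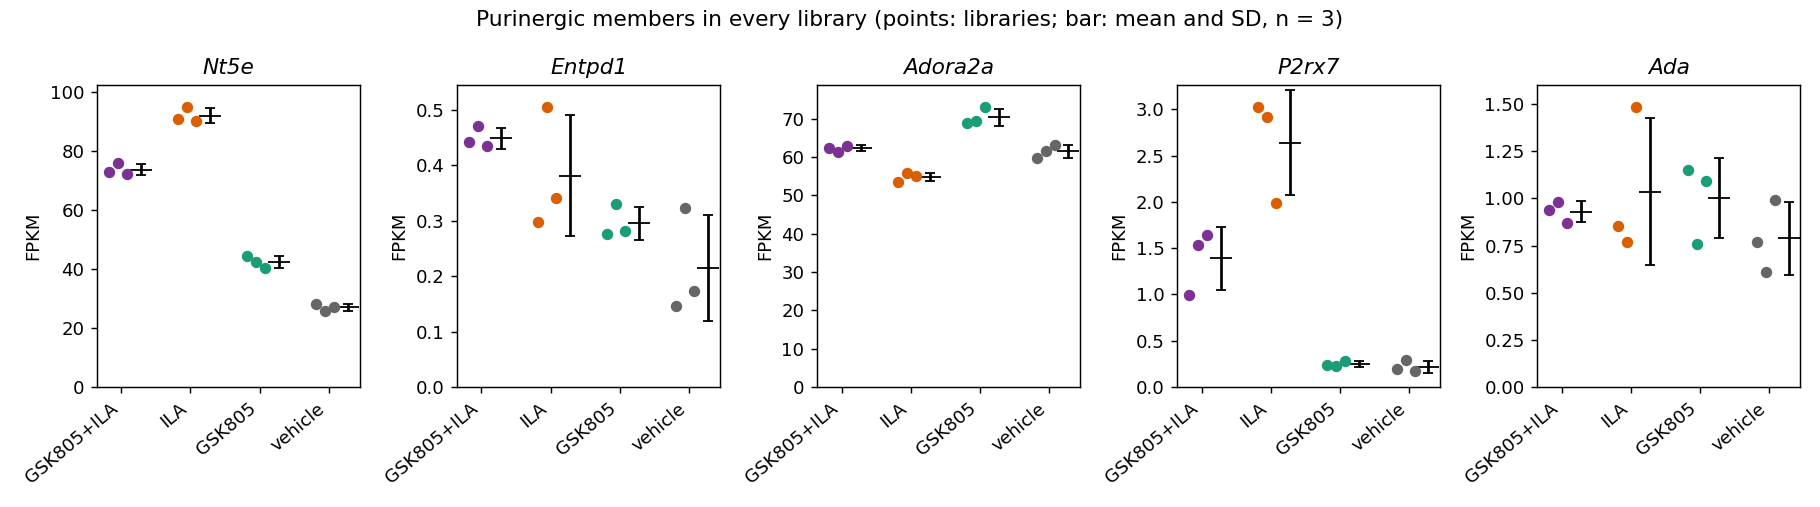
Levels of the 5 members in FPKM (vertical axes, each with its own range from 0) in the groups GSK805+ILA, ILA, GSK805 and vehicle; points are libraries and bars give the mean and SD of 3 libraries. Nt5e separates into 4 levels, P2rx7 is at 0.999 FPKM or more in the 6 libraries with ILA and at 0.294 FPKM or less in the other 6, and Ada overlaps between all groups.

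Entpd1, which acts one step before Nt5e, was close to the limit of what this depth can measure. The gene (ENSMUSG00000048120) lies on the plus strand of chromosome 19 from 40612366 to 40741602, with 5580 exonic bases, and overlaps 3 small annotated genes on the same strand, of which 2 are processed pseudogenes. Entpd1 had 0.443, 0.471 and 0.435 FPKM with GSK805+ILA, 0.298, 0.505 and 0.342 FPKM with ILA, 0.276, 0.330 and 0.282 FPKM with GSK805, and 0.146, 0.323 and 0.174 FPKM with vehicle. These levels rest on 46 to 59, 34 to 53, 33 to 40 and 18 to 37 reads per library. The libraries with both compounds lay above all of those with GSK805 and above all of those with vehicle, and the other groups overlapped. The shares of genes without overlap given above do not cover Entpd1, which was not in the main test. By mean, the order was GSK805+ILA, ILA, GSK805, vehicle, and no pair of neighbours in it differed beyond its spread.

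Since Entpd1 did not reach a mean of 1 FPKM in any group, it was left out of the main test. Its means were 0.450 ± 0.0190 FPKM with GSK805+ILA and 0.214 ± 0.0954 FPKM with vehicle (SD, n = 3 each; two-sided exact permutation p = 0.1, the smallest that 3 against 3 libraries allow). ILA against vehicle gave an exact permutation p of 0.2 (0.382 ± 0.109 FPKM with ILA, n = 3), and GSK805 against vehicle one of 0.3 (0.296 ± 0.0299 FPKM with GSK805, n = 3). Without the filter, limma gave an adjusted p of 0.0513 for both compounds against vehicle and 0.148 for ILA against vehicle. On whole reads recovered from the FPKM, a test added after the values were seen, voom called Entpd1 higher with both compounds (log2 change 1.16, SE 0.36, adjusted p = 0.00602) and with ILA (log2 change 0.87, SE 0.37, adjusted p = 0.0446). That voom fit called 4753 genes higher with both compounds and 5083 with ILA, each against vehicle. Whether Entpd1 was called thus depended on how low values were handled. In FPKM, which is per length, Nt5e exceeded Entpd1 161-fold to 166-fold in the libraries with GSK805+ILA, 187-fold to 304-fold with ILA, 128-fold to 161-fold with GSK805 and 79.4-fold to 194-fold with vehicle.

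Adora2a, the main adenosine receptor of T cells, was abundant in every group and moved little. The gene (ENSMUSG00000020178) lies on the plus strand of chromosome 10 from 75316877 to 75334784, with 3062 exonic bases and no overlapping gene. Its levels were 62.5, 61.4 and 62.9 FPKM with GSK805+ILA, 53.6, 55.7 and 55.0 FPKM with ILA, 68.8, 69.4 and 73.0 FPKM with GSK805, and 59.7, 61.6 and 63.2 FPKM with vehicle. The order was GSK805, then GSK805+ILA and vehicle, which overlapped, then ILA, and the groups at the ends overlapped with no other.

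Relative to vehicle, Adora2a was 1.12-fold lower with ILA, at 54.8 ± 1.09 FPKM against 61.5 ± 1.72 FPKM (SD, n = 3 each; log2 change -0.16, SE 0.03, limma adjusted p = 0.00158), in a comparison where 24% of genes were called lower. It was 1.14-fold higher with GSK805, at 70.4 ± 2.24 FPKM (log2 change 0.19, SE 0.03, adjusted p = 0.00255; 15.7% of genes called higher). With both compounds it stood at 62.2 ± 0.775 FPKM, and the log2 change from vehicle was 0.02 (95% interval -0.06 to 0.09, adjusted p = 0.699). The ILA effect with GSK805 present was -0.17 (GSK805+ILA against GSK805, adjusted p = 0.00195; 17.5% of genes called lower). The GSK805 effect with ILA present was 0.18 (GSK805+ILA against ILA, adjusted p = 0.00459; 9.92% called higher). The interaction was -0.01 (SE 0.05, 95% interval -0.12 to 0.10, adjusted p = 0.913), so no departure from additive effects was detected. These sizes are near the shift that scaling can bring: centring each library on its median moved the median log2 change of all genes by -0.135 for ILA, -0.0775 for GSK805 and -0.137 for both compounds against vehicle. With it the Adora2a change was -0.30 with ILA, 0.11 with GSK805 (adjusted p = 0.0497) and -0.12 with both compounds, where it was then called lower (adjusted p = 0.0169).

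The ratio of Nt5e RNA to Adora2a RNA separated the groups, mostly through Nt5e, and was not tested itself. The FPKM of Nt5e divided by those of Adora2a averaged 1.18 ± 0.0462 with GSK805+ILA, 1.68 ± 0.0332 with ILA, 0.602 ± 0.0480 with GSK805 and 0.439 ± 0.0293 with vehicle (SD, n = 3 each). The FPKM of Nt5e thus exceeded those of Adora2a in every library with ILA and lay below them in every library without ILA. Where the ratio crosses 1 depends on the exon lengths used, 8602 bases for Nt5e and 3062 for Adora2a. The ranges of the 4 groups did not overlap. RNA alone does not give the levels of the proteins or of adenosine.

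**Figure D2:**
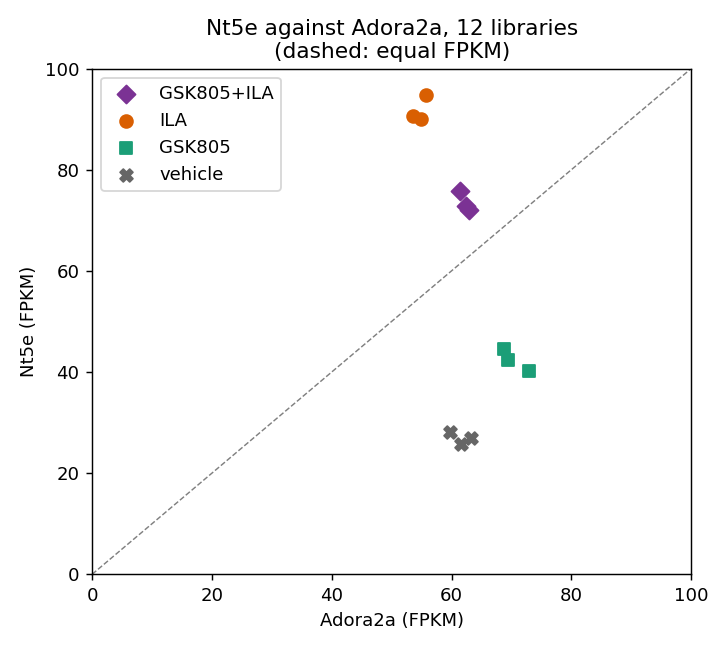
Nt5e (vertical axis, FPKM) against Adora2a (horizontal axis, FPKM) in the 12 libraries, with a dashed line where both are equal. The 6 libraries with ILA lie above the line and the 6 without it below, and the groups differ far more along the Nt5e axis (25.7 to 94.7 FPKM) than along the Adora2a axis (53.6 to 73.0 FPKM).

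P2rx7, the ATP-gated channel, was near the floor without ILA and was measurable in every library with it. The gene (ENSMUSG00000029468) lies on the plus strand of chromosome 5 from 122643911 to 122691432, with 5970 exonic bases, and holds the microRNA gene Mir8115 on the same strand. P2rx7 had 0.999, 1.53 and 1.64 FPKM with GSK805+ILA and 3.02, 2.91 and 1.99 FPKM with ILA. It had 0.236, 0.224 and 0.279 FPKM with GSK805 and 0.189, 0.294 and 0.171 FPKM with vehicle. These correspond to 111 to 230 reads per library with both compounds, 212 to 390 with ILA, 29 to 35 with GSK805 and 21 to 36 with vehicle. The libraries with ILA lay above those without it, libraries with ILA alone lay above those with both compounds, and GSK805 and vehicle overlapped. P2rx7 reached the 1 FPKM needed for the test only through the groups with ILA.

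ILA raised P2rx7 to 2.64 ± 0.567 FPKM, against 0.218 ± 0.0665 FPKM with vehicle (SD, n = 3 each; log2 change 1.57, SE 0.15, 2.97-fold on the FPKM + 1 scale, limma adjusted p = 3.3e-06). On recovered reads, where the offset added to low values is smaller, the log2 change was 3.62 (SE 0.33, voom adjusted p = 2.1e-12), or 12.3-fold. With both compounds P2rx7 stood at 1.39 ± 0.343 FPKM (log2 change from vehicle 0.96, adjusted p = 1.9e-04; 2.70 on recovered reads). GSK805 alone gave 0.246 ± 0.0291 FPKM, a log2 change of 0.03 whose 95% interval ran from -0.28 to 0.35 (adjusted p = 0.893), so no change was detectable at this depth. Against GSK805 alone, both compounds gave a log2 change of 0.93 (adjusted p = 4.2e-04; 2.49 on recovered reads; 22% of genes called higher).

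P2rx7 was 1.52-fold lower with both compounds than with ILA alone (log2 change -0.61, SE 0.15, limma adjusted p = 0.0148; 8.64% of genes called lower). On recovered reads the log2 change was -0.92 (voom adjusted p = 3.6e-05). The limma call did not hold with a pseudocount of 0.1 (adjusted p = 0.055), without ILA replicate 1 (0.0627), without ILA replicate 2 (0.0587) or without GSK805+ILA replicate 1 (0.0547). The interaction was -0.64 (95% interval -1.09 to -0.19) and did not pass (adjusted p = 0.0615, 0.0274 to 0.134 over the alternatives), and on recovered reads it was -1.13 (adjusted p = 0.0761). It passed without ILA replicate 3 (adjusted p = 0.0274) and in limma without trend and robust moderation (adjusted p = 0.042). Without ILA replicate 2, the library with haemoglobin RNA, the log2 change from vehicle with ILA was 1.51 for P2rx7 and 1.71 for Nt5e, and both remained called.

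Ada, which removes adenosine, did not differ between any groups beyond the spread of its libraries. Its gene (ENSMUSG00000017697) lies on the minus strand of chromosome 2 from 163726584 to 163750239, with 2002 exonic bases and no overlapping gene. Ada had 0.939, 0.979 and 0.872 FPKM with GSK805+ILA, 0.855, 0.770 and 1.48 FPKM with ILA, 1.15, 0.759 and 1.09 FPKM with GSK805, and 0.766, 0.609 and 0.993 FPKM with vehicle, from 25 to 54 reads per library. Every pair of groups overlapped. The log2 change from vehicle was 0.18 with ILA (95% interval -0.15 to 0.50), 0.16 with GSK805 (-0.17 to 0.49) and 0.11 with both compounds (-0.21 to 0.44), with limma adjusted p of 0.335, 0.482 and 0.547. Each of those intervals ran from a fall to a rise, so the lack of a call does not show that Ada was unchanged. The direction for ILA and for both compounds turned in other scalings. Ada reached the 1 FPKM needed for the test by a narrow margin, with means of 1.04 ± 0.390 FPKM with ILA and 1.00 ± 0.212 FPKM with GSK805 (SD, n = 3 each).

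**Figure D3:**
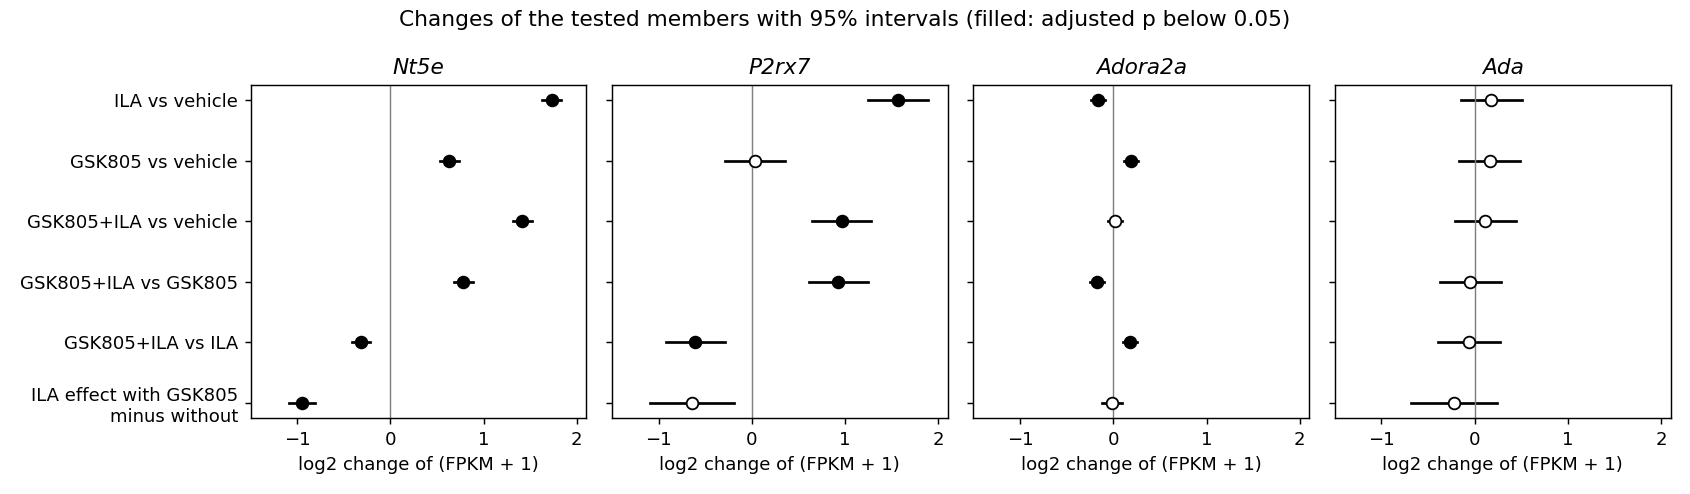
Log2 changes of FPKM + 1 (horizontal axes) of the 4 members tested, with 95% intervals, in 5 comparisons and in the interaction, the ILA effect with GSK805 minus the ILA effect without it. Filled points passed an adjusted p of 0.05. Nt5e is filled in all 6 rows, P2rx7 in the 4 rows of ILA vs vehicle, GSK805+ILA vs vehicle, GSK805+ILA vs GSK805 and GSK805+ILA vs ILA, Adora2a in 4 rows at changes of less than 0.20 in size, and Ada in none.

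For each member, the 3 genes whose centred log2(FPKM + 1) lay closest to its own over the 12 libraries were found among 7132 genes whose mean reached 5 FPKM in some group. The measure was the root mean square difference, in log2 units. For Nt5e they were Shisa5 (0.0971), Basp1 (0.0994) and Ankrd44 (0.103), beside a spread of Nt5e itself of 0.678. Shisa5 averaged 318 ± 9.96 FPKM with GSK805+ILA, 341 ± 12.9 FPKM with ILA, 159 ± 11.6 FPKM with GSK805 and 108 ± 1.96 FPKM with vehicle (SD, n = 3 each). For P2rx7, at a spread of 0.674, they were Acsf2 (0.112), the T cell co-receptor gene Cd4 (0.137) and H2afy, which encodes a variant histone (0.139). Cd4 stood at 87.8 ± 3.67 FPKM with GSK805+ILA, 117 ± 5.29 FPKM with ILA, 39.7 ± 1.11 FPKM with GSK805 and 42.4 ± 1.18 FPKM with vehicle (SD, n = 3 each). The likeness to P2rx7 is one of log2(FPKM + 1) only, since the added 1 shrinks changes of low values. In FPKM, P2rx7 rose by a larger fold than Cd4, from 0.218 FPKM with vehicle to 2.64 FPKM with ILA. For Adora2a they were Cd82, which encodes a tetraspanin (0.0274), Man1a, a mannosidase of glycoprotein processing (0.0408), and Gosr2, a Golgi transport protein (0.0409), at a spread of 0.129. Entpd1 lay closest to Fh1, Slc35b3 and Agpat1 and Ada to Kat14, Ufsp2 and Polr2i, but both members were nearly flat on this scale, with spreads of 0.117 and 0.158.

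The wider purinergic system was taken from a list of 75 genes, of which 73 were matched and 40 reached a mean of 1 FPKM in some group and were tested. Adora2b and Art2b reached it only through the groups with ILA, which favours their being counted as higher there. The list was chosen with earlier results of these data known, so the counts describe it and are no test of it. With ILA against vehicle, 24 of the 40 were called higher and 5 lower, and 11 did not pass, at a median log2 change of 0.29 beside 0.06 over all genes. GSK805 against vehicle gave 15 higher, 5 lower and 20 not passed (median 0.09, all genes 0.05). Both compounds against vehicle gave 22 higher, 8 lower and 10 not passed (median 0.27, all genes 0.06). These 3 comparisons share the vehicle libraries. Over all genes tested, 33.9%, 15.7% and 31.8% were called higher and 24%, 7.08% and 20.3% lower in them. Scaling shifts these counts: with median centring they were 19 higher and 8 lower for ILA, 11 and 10 for GSK805, and 20 and 11 for both compounds. Of the 79 calls against vehicle, 15 were lost when some single library was left out. These were Prkar1a, Slc17a9 and Slc29a1 with ILA, Adcy3, Ak3, Creb1, Crem, Pde4d, Prkacb and Prkar1a with GSK805, and Adk, Ahcy, Dpp4, Nt5c2 and Pde7a with both compounds. GSK805+ILA against GSK805 gave 18 higher and 5 lower, where 22% and 17.5% of all genes were called so. GSK805+ILA against ILA gave 6 higher and 9 lower, where 9.92% and 8.64% of all genes were.

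Among the other ectonucleotidases, 4 of 14 were tested. Entpd5 and Entpd6, relatives of Entpd1 that act on nucleoside diphosphates mainly inside the secretory pathway, were called higher in all 3 treated groups. Entpd5 averaged 5.89 ± 0.251 FPKM with GSK805+ILA, 5.15 ± 0.208 FPKM with ILA, 4.42 ± 0.150 FPKM with GSK805 and 2.74 ± 0.176 FPKM with vehicle (SD, n = 3 each), with log2 changes of 0.88 with both compounds, 0.72 with ILA and 0.54 with GSK805. Entpd6 changed by 0.52 with both compounds, 0.39 with ILA and 0.36 with GSK805. Entpd7 was lower with ILA (log2 change -0.31, adjusted p = 0.00269), though it overlaps Cox15 on the opposite strand. Enpp4 was higher with GSK805 (log2 change 0.41, adjusted p = 0.00507). Cd38, an enzyme that consumes extracellular NAD, stayed under the 1 FPKM needed for the test, with 0.295 ± 0.0566 FPKM with GSK805+ILA, 0.861 ± 0.0740 FPKM with ILA, 0.0655 ± 0.0251 FPKM with GSK805 and 0.175 ± 0.0548 FPKM with vehicle (SD, n = 3 each).

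Of the receptors other than the members, Adora2b, P2rx3, P2rx4 and P2ry10 were tested. Adora2b, the adenosine receptor of lower affinity, had 1.28, 1.76 and 1.82 FPKM with GSK805+ILA, 1.83, 1.41 and 1.67 FPKM with ILA, 0.255, 1.02 and 0.671 FPKM with GSK805, and 0.636, 0.502 and 0.736 FPKM with vehicle. All libraries with ILA lay above all without it, and the log2 change from vehicle was 0.69 with both compounds (adjusted p = 0.00478) and 0.70 with ILA (adjusted p = 0.00373). GSK805 alone gave 0.00 (adjusted p = 0.995). Adora2b reached 1 FPKM through the ILA groups alone, and Adora1 and Adora3 did not exceed 0.0217 FPKM in any group mean. P2rx4, another ATP-gated channel, neighbours P2rx7 on chromosome 5 (122707544 to 122729738) and was called higher with both compounds (log2 change 0.71), with ILA (0.63) and with GSK805 (0.35). P2ry10, a lysophospholipid receptor of lymphocytes that is named with the P2Y family, went in opposite directions: it was higher with ILA (33.3 ± 0.968 FPKM against 23.8 ± 1.53 FPKM with vehicle; log2 change 0.47) and lower with both compounds (-0.33) and with GSK805 (-0.43). P2rx3 passed in none of the comparisons, and its 5 FPKM or so cannot be told apart from Ssrp1 on the opposite strand, since the sources used here do not state whether strand was kept.

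In adenosine metabolism, 11 of 14 listed genes were tested. The cytosolic nucleotidases Nt5c and Nt5c3b were called higher in all 3 treated groups: Nt5c3b by log2 changes of 0.70 with both compounds, 0.70 with ILA and 0.34 with GSK805, and Nt5c by 0.42 with both compounds, 0.41 with ILA and 0.19 with GSK805. Each overlaps a gene on the opposite strand, Fkbp10 for Nt5c3b and Armc7 for Nt5c, and Nt5c no longer passed for GSK805 with median centring. Ak3, a mitochondrial adenylate kinase, was higher with both compounds (0.69), with ILA (0.56) and with GSK805 (0.23), although for GSK805 not with median centring or quantile normalization. Ak3 too overlaps genes on the opposite strand, among them the protein-coding Cdc37l1. Dpp4, the surface protein that anchors adenosine deaminase on human T cells, stood at 5.84 ± 0.180 FPKM with GSK805+ILA, 11.2 ± 0.252 FPKM with ILA, 4.72 ± 0.503 FPKM with GSK805 and 6.88 ± 0.0844 FPKM with vehicle (SD, n = 3 each). It was thus higher with ILA (log2 change 0.63) and lower with both compounds (-0.21) and with GSK805 (-0.47). Pnp, which splits inosine and guanosine, was lower with both compounds (-0.31) and with ILA (-0.52), but it overlaps its near-identical neighbour Pnp2, so how reads were divided between them is uncertain. Adk, which returns adenosine to AMP, and Ak4 were lower with both compounds (log2 changes -0.27 and -0.39; adjusted p = 0.0244 and 0.00218). The remaining calls in this group were small: Ahcy and Nt5c2 were higher with both compounds and with ILA, Nt5c3 with both compounds, and Ampd2 was lower with ILA, none by more than 0.39 on the log2 scale, and with median centring Ahcy was called in neither of its comparisons and Nt5c2 not with both compounds.

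Slc28a2, a concentrative purine nucleoside transporter, had 8.0, 8.54 and 7.44 FPKM with GSK805+ILA, 9.73, 9.86 and 8.46 FPKM with ILA, 4.28, 4.19 and 3.87 FPKM with GSK805, and 2.54, 3.38 and 2.50 FPKM with vehicle. It was higher in each treated group, by log2 changes of 1.25 with both compounds, 1.45 with ILA and 0.43 with GSK805 (adjusted p = 0.00704 for the last), and libraries with ILA did not overlap those without it. Slc28a2 overlaps the unprocessed pseudogene Gm14086 on the same strand, so how reads were divided between them is uncertain. The equilibrative transporters Slc29a1 and Slc29a2 were called higher with ILA (0.18 and 0.47), but neither was with median centring. Slc29a2 and Slc29a3 were called higher with both compounds (0.57 and 0.38) and Slc29a3 with GSK805 (0.37). Panx1, a channel that releases ATP, was higher with both compounds (0.35) and with GSK805 (0.30), and Slc17a9, which loads ATP into vesicles, was lower with ILA (-0.22, adjusted p = 0.0207). Art2b, an ecto-enzyme that in mouse T cells opens P2RX7 by ADP-ribosylation, had 1.79, 2.57 and 2.42 FPKM with GSK805+ILA, 2.27, 2.33 and 2.56 FPKM with ILA, 0.377, 0.537 and 0.572 FPKM with GSK805, and 0.303, 0.0517 and 0.309 FPKM with vehicle. Its log2 change from vehicle was 1.42 with both compounds and 1.48 with ILA, and 0.30 with GSK805 (adjusted p = 0.124). Art2b reached 1 FPKM through the ILA groups alone, and its near-identical relative Art2a was not matched, so the sum of both may be what was counted.

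Downstream of the adenosine receptors, 13 of 16 listed genes of cyclic AMP signalling were tested, and with ILA against vehicle 9 were called higher and 1 lower (33.9% and 24% of all genes were), at a median log2 change of 0.43. With GSK805 they were 5 and 3 (all genes 15.7% and 7.08%; median -0.10), and with both compounds 7 and 3 (all genes 31.8% and 20.3%; median 0.41). Adcy7, the adenylyl cyclase best known from blood cells, averaged 17.0 ± 0.416 FPKM with GSK805+ILA, 18.8 ± 0.158 FPKM with ILA, 9.23 ± 0.494 FPKM with GSK805 and 7.32 ± 0.593 FPKM with vehicle (SD, n = 3 each), with log2 changes of 1.12 with both compounds, 1.25 with ILA and 0.30 with GSK805. Prkaca, a catalytic subunit of protein kinase A, was higher by 0.91 with both compounds, 1.02 with ILA and 0.38 with GSK805. Prkacb, the other catalytic subunit listed, was higher by 0.66 with both compounds, 0.52 with ILA and 0.14 with GSK805, of which the GSK805 change was not called with quantile normalization or median centring. Among the phosphodiesterases, which break down cyclic AMP, Pde4d was higher with both compounds (0.60) and with ILA (1.24) and lower with GSK805 (-0.29). Pde3b was higher with both compounds (0.43) and with ILA (0.90). Pde4b went the other way and was lower with both (-0.50) and with ILA (-0.53). Adcy6 was higher with both compounds (0.58) and with ILA (1.05), and Adcy3, which overlaps Cenpo on the opposite strand, with GSK805 (0.33; not with quantile normalization). Creb1, a transcription factor activated by protein kinase A, was higher with both compounds (0.41), with ILA (0.43) and with GSK805 (0.24, though not with quantile normalization or median centring), while Crem was lower with both compounds (-0.48) and with GSK805 (-0.45). Prkar1a was lower with GSK805 (-0.15) and Pde7a with both compounds (-0.11). With ILA, Prkar1a and Pde7a were called higher by 0.12 and 0.13, but both were below 0 with median centring (-0.019 and -0.00118).

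**Figure D4:**
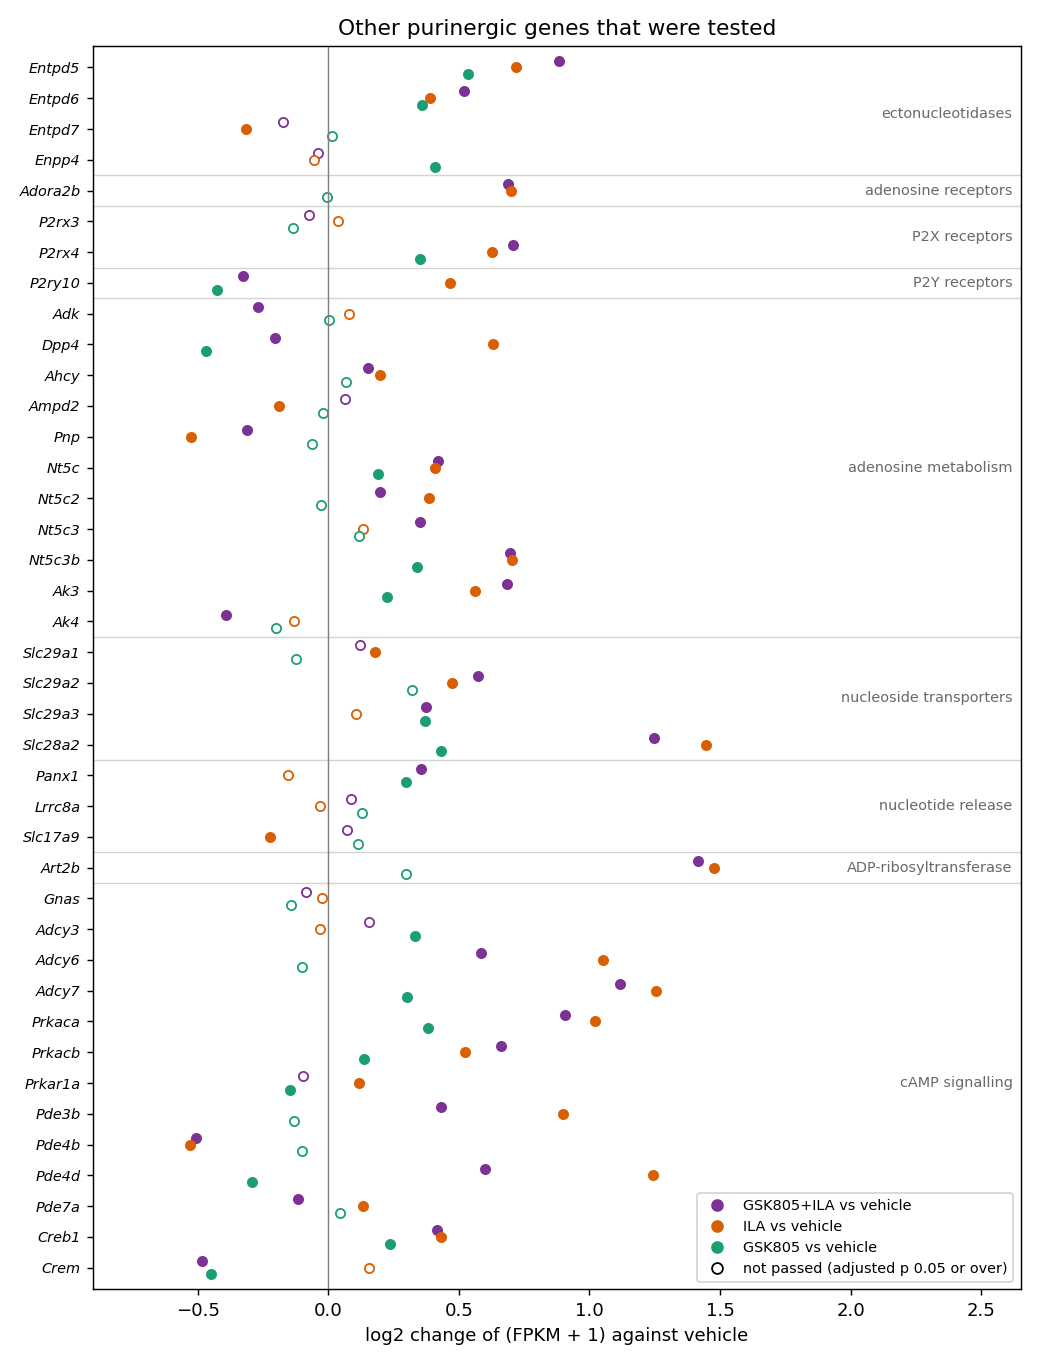
Log2 change of FPKM + 1 against vehicle (horizontal axis) of the 40 other purinergic genes tested, by role; purple is GSK805+ILA, orange ILA and green GSK805, and filled points passed an adjusted p of 0.05. The points farthest to the right are Art2b and Slc28a2 with ILA, at 1.48 and 1.45, and Art2b with both compounds, at 1.42.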

How the data were processed

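The authors deposited FPKM, 1 file per library. FastQC 0.11.2, Bowtie (version not given) and the build mm10 are named in the submitters' processing notes. How reads were assigned to genes, with which annotation and strand setting, is not given in the sources. With exon lengths of GENCODE release M21, 98.7% of values above 0 lay within 0.1 of whole reads, which gave the depths and read counts.

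FPKM were taken to log2 after adding 1. Genes reaching a mean of 1 FPKM in any group were kept (13511), and limma 3.58.1 in R 4.3.3 was fitted to all 12 libraries, with 1 mean per group, a variance trend and robust moderation. P-values were adjusted by Benjamini-Hochberg over all genes in each of 6 comparisons and called below 0.05; the procedure was tested on simulated data. Single values below the filter were compared by exact permutation tests (scipy 1.17.1).

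Members, lists and tests were chosen with earlier results of these data known. Some listed genes are not reported here, and the counts of the lists were made without them. By the rule for naming, members were always named, and the other purinergic genes were named where called against vehicle; P2rx3, Cd38 and genes below the filter were named beyond it, after their values were seen. The alternatives were other scalings, filters and pseudocounts, plain moderation, a replicate block, fits of only the groups compared, voom on recovered reads, leaving out each library, and 1 chosen after seeing the data (voom with a lower filter). Figures and tables used Python 3.11.15, pandas 2.3.3, numpy 2.4.6 and matplotlib 3.10.9.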

Additional observations from a re-analysis of the deposited data

Results flagged for a closer look

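For 13 of the purinergic genes named, out of 4 members tested and 37 others, the effect of ILA differed depending on whether GSK805 was present. The test was of the difference itself (limma interaction, adjusted over all genes, of which 13.8% were called, 8.7% lower and 5.15% higher). The 37 were named because they were called against vehicle, in libraries that the interaction also uses. The shares over all genes, which were not so selected, are therefore not a like comparison. Each value is the log2 effect of ILA with GSK805 minus that without it. Among the members this held for Nt5e, at -0.95 (adjusted p = 8.6e-05). The enzymes and receptors outside the cell or in the secretory pathway were Entpd5 at -0.37 (adjusted p = 0.0155), Enpp4 at -0.39 (0.0474), P2ry10 at -0.37 (0.0167) and Dpp4 at -0.37 (0.0191). The transporter Slc28a2 gave -0.63 (0.0113) and the nucleotidase Nt5c3b -0.35 (0.0346). In cyclic AMP signalling, Prkaca gave -0.50 (0.00854), Adcy7 -0.44 (0.0057), Pde4d -0.35 (0.0498), Pde3b -0.33 (0.0220) and Pde7a -0.29 (0.00579). Ampd2, an AMP deaminase, was the exception in direction, at 0.27 (0.0235). With median centring the balance over all genes turned to 1289 called higher and 750 lower. For the other purinergic genes it was then 2 higher and 8 lower. Enpp4, Nt5c3b and Pde4d were not called with quantile normalization or median centring, and Entpd5 was not with quantile normalization. Those of Ampd2, Enpp4, Nt5c3b, Pde3b and Pde4d were lost when some single library was left out.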

How the results depend on the processing

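The calls of Nt5e held under every alternative, as did those of P2rx7 and Adora2a apart from the following. P2rx7 with GSK805+ILA against ILA was -0.89 and not called with a pseudocount of 0.1, and -0.74 to -0.48 with 1 library left out. Its interaction was -0.64 and called without trend and robust moderation, and -0.78 to -0.52 with 1 library left out. With median centring P2rx7 with GSK805 turned to -0.043, and Adora2a to -0.12 with GSK805+ILA against vehicle and to 0.065 in the interaction. With 1 library left out these Adora2a values ran -0.0032 to 0.037 and -0.030 to 0.015. Ada, never called, turned with quantile normalization for ILA (-0.0014) and GSK805+ILA against ILA (0.0048), with median centring for GSK805+ILA against vehicle (-0.023), and with libraries left out ran -0.14 to 0.0077 against GSK805 and -0.15 to 0.090 against ILA. Prkar1a (-0.019) and Pde7a (-0.00118) with ILA turned with median centring.

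With median centring GSK805 gave 1112 genes higher and 1648 lower, GSK805+ILA against vehicle 4437 lower, and the interaction 1289 higher and 750 lower. With quantile normalization GSK805 gave 1326 higher. Of the calls, 40.9% were higher with median centring, 46.3% with quantile normalization and 58.6% as reported for ILA. For GSK805 these shares were 40.3%, 55.9% and 68.9%, and for GSK805+ILA against vehicle 40.2%, 47.8% and 61.1%. For GSK805+ILA against GSK805 they were 41.6%, 46.8% and 55.7%, and for the interaction 63.2%, 46.0% and 37.2%. Without a filter GSK805+ILA against ILA gave 881 higher, and the interaction 368 higher and 699 lower. With 1 library left out, GSK805 gave 1409 to 2056 genes higher, GSK805+ILA against ILA 826 to 1158 higher, and the interaction 417 to 726 higher and 761 to 1248 lower.

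Among the other purinergic genes, ILA gave 9 lower with quantile normalization, 8 with median centring, 3 with the filter at 5 FPKM and 8 by voom with the lower filter. GSK805 gave 8 lower with quantile normalization and 10 with median centring, and 2 to 6 with 1 library left out. GSK805+ILA against vehicle gave 4 lower with the filter at 5 FPKM. Against GSK805 it gave 8 lower with either scaling, 3 without a filter, 2 with the filter at 5 FPKM and 3 to 4 with 1 library left out. Against ILA it gave 14 lower by voom with the lower filter, and 2 to 5 higher with 1 library left out. The interaction gave 2 higher with either scaling and 0 without a filter, 7 lower with quantile normalization or without a filter, and 0 to 1 higher and 7 to 11 lower with 1 library left out. Apart from scaling, whose shift of all values is given above, and the filters, which change the genes tested, the cause was not tested.

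Same-numbered libraries of different groups did not deviate together (correlations -0.08 to 0.08, 0 of 18 pairs over 0.1), so the labels' numbers were not taken as pairing. The replicate block left the Nt5e change with ILA at 1.73 and called 4547 genes higher and 3246 lower, against 4582 and 3236 as reported. Of 420 alternative values of members 402 kept direction and call. Of 2098 alternative values of the other purinergic genes called, 1912 kept both, 184 lost the call and 2 turned, and 29 of the 129 calls were lost when some single library was left out. At this depth Entpd1 and Ada, at 18 to 59 reads per library, allow only large changes to be detected. Their read counts carry counting error besides the spread between replicates.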

Other observations

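Of the listed purinergic genes, 33 that were matched stayed below a mean of 1 FPKM in every group. The highest were P2rx5, an ATP-gated channel, with at most 0.928 FPKM in a group mean, Cd38, and the nucleotide receptor P2ry2, with at most 0.707 FPKM. Enpp1, an ectonucleotidase that splits ATP into AMP and pyrophosphate, averaged 0.231 ± 0.0354 FPKM with GSK805+ILA, 0.425 ± 0.0603 FPKM with ILA, 0.108 ± 0.0650 FPKM with GSK805 and 0.113 ± 0.0615 FPKM with vehicle (SD, n = 3 each). The channel genes Panx2 and Panx3 and the adenosine receptor Adora1 lay at or below 0.0149 FPKM in every group mean. These values were looked at after the tests. The main test left these genes out, and their results in the fits with no filter or a lower one are not given here.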
